A study of Mus musculus with 6 samples.

Results

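MHC class I antigen presentation was followed here through 10 genes taken by symbol from the table of normalized counts, which held 25067 rows. The 10 genes were the heavy chains H2-K1, H2-D1, H2-T23 and H2-Q10, the light chain B2m, the peptide transporter subunits Tap1 and Tap2, the loading chaperone Tapbp, the peptidase Erap1 and the transactivator Nlrc5. The heavy chain genes, Tap1, Tap2 and Tapbp lie in the major histocompatibility complex (MHC) on chromosome 17, B2m on chromosome 2, Erap1 on chromosome 13 and Nlrc5 on chromosome 8. Each had 1 row, and 9 of the 10 had a mean normalized count of at least 10 and entered the test. The samples were colon organoids, which are cultures grown from isolated crypts, made from C57BL/6 mice aged 8 weeks. All carried floxed alleles of both atypical protein kinase C genes and a tamoxifen-inducible Cre recombinase under the Villin promoter, which is active in gut epithelium (genotype Prkcif/fPrkczf/f;Villin-CreERT2). At passage the organoids received ethanol (vehicle, 3 libraries) or 4-OH tamoxifen (4-OHT, 3 libraries), and RNA was taken after 3 days in a medium of Advanced DMEM/F12, B27, EGF, Noggin, WNT3A and R-spondin 1. The comparison asks how transcript levels differ once the kinase genes have been targeted. Every library carried the Cre transgene and both floxed genes, so loss of the kinases, Cre activity and 4-OHT itself cannot be told apart.

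Class I molecules display peptides from inside the cell to CD8 T cells and natural killer cells. A polymorphic heavy chain pairs with beta-2-microglobulin in the endoplasmic reticulum, peptides cut by the proteasome are pumped in by the TAP transporter and trimmed by aminopeptidases, and tapasin holds an empty heavy chain beside TAP until a peptide binds. In the intestinal epithelium class I is expressed at steady state and is raised by interferons, in part through the transactivator NLRC5.

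The libraries held between 15804709 and 26957612 reads over genes. The labels do not say that the 3 libraries of a group came from separate animals or cultures, so the p-values measure the spread between these libraries, which may be technical. Transcripts of the targeted genes were lower after 4-OHT. Prkcz had normalized counts of 880, 904 and 954 in vehicle and 287, 265 and 290 in 4-OHT, while Prkci had 3603, 3526 and 3430 in vehicle and 2869, 3105 and 3089 in 4-OHT. The log2 fold change was -1.70 for Prkcz (SE 0.08, limma adjusted p = 3.17e-12) and -0.22 for Prkci (SE 0.05, limma adjusted p = 8.13e-04), and the sources used here do not give the deleted exons. Colonic epithelial markers were present in every library, and the 11 genes fixed as such summed to between 20825 and 28509 RPM (reads per 1000000 reads of the library). Some markers of other tissues were higher in 4-OHT replicates 2 and 3. The 9 genes listed for Paneth cells and ileum summed to between 28.2 and 36.2 RPM in vehicle, to 45.7 in 4-OHT replicate 1 and to 97.4 and 93.8 in the other two 4-OHT libraries, and the plasma cell gene Igha was without a read in vehicle and had 1, 135 and 40 reads after 4-OHT. Smooth muscle markers summed to 3, 8 and 9 reads in vehicle and to 11, 55 and 98 in 4-OHT, fibroblast markers to 73, 70 and 32 against 38, 43 and 186, and endothelial markers to 46, 77 and 33 against 32, 46 and 46. Their part in the results on class I genes was not tested, and each called member is given below with 4-OHT replicate 1 alone.

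Of the 9 members tested, 5 were higher after 4-OHT and 1 was lower. H2-T23, Tapbp, B2m, H2-D1 and H2-K1 rose, by 14.1% to 55.1% of the vehicle mean, and H2-Q10 fell by 33.0%. Tap1, Tap2 and Erap1 did not pass the test, and Nlrc5 was too low to be tested. Among all 13210 rows tested, 22.7% were called higher and 21.0% lower. The median log2 fold change of the 9 members was 0.25, against -0.01 over all rows. A change in the number of cells of a type and a change in the RNA per cell cannot be told apart in these bulk libraries.

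**Figure D1:**
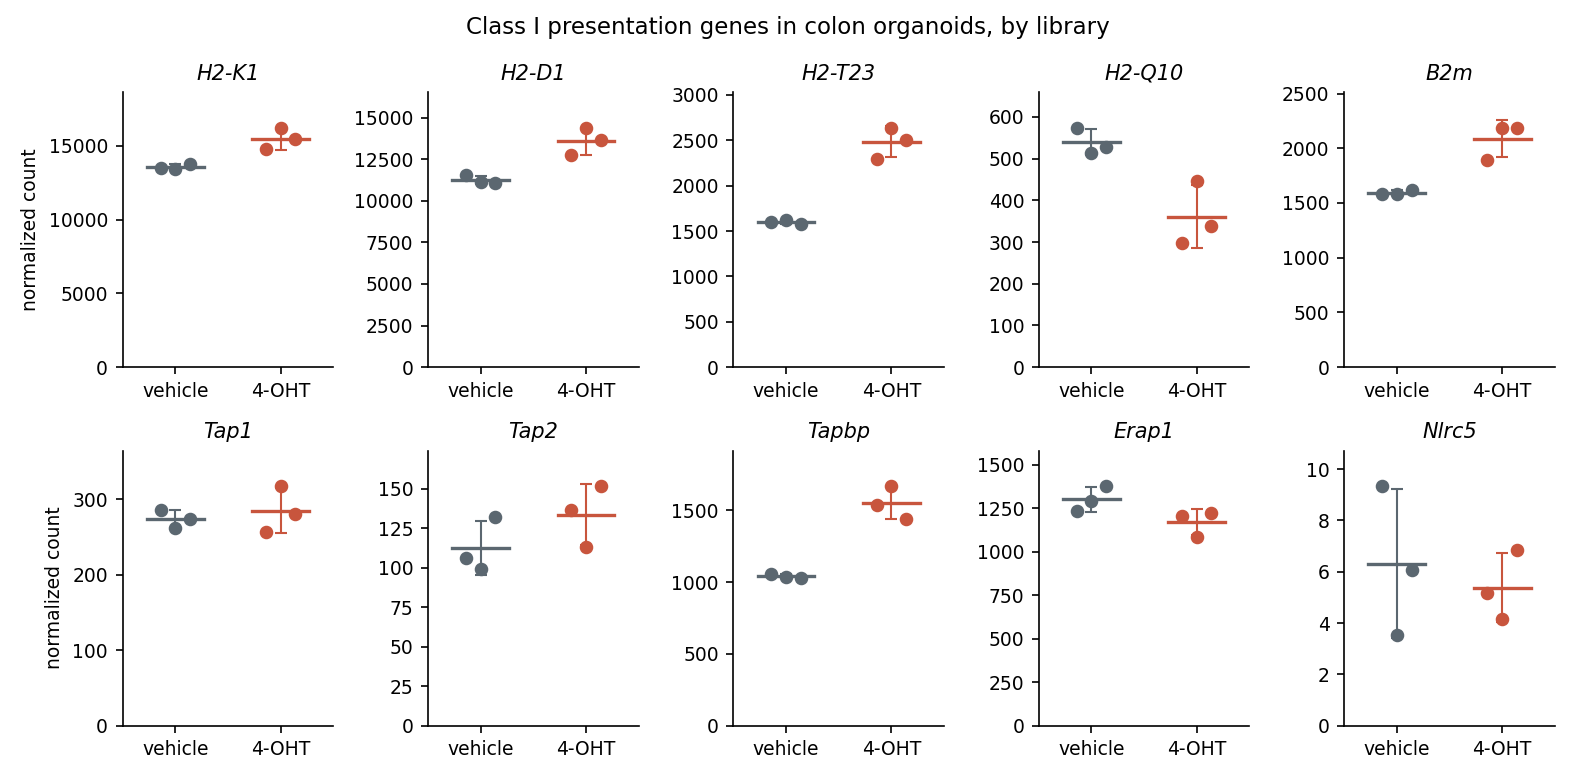
Normalized counts of the 10 genes in each library, with 1 point per library, the group mean as a horizontal line and the SD as an error bar. Each panel has its own linear axis starting at 0. The 3 points of each group are separated for H2-K1, H2-D1, H2-T23, B2m and Tapbp, which are higher in 4-OHT, and for H2-Q10 and Erap1, which are lower.

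Per kilobase of transcript, H2-K1 was the most abundant member, with a vehicle mean of 8382 normalized counts per kb. H2-D1 followed at 5358, B2m at 1852 and H2-T23 at 1087 normalized counts per kb in vehicle. These 4 genes kept that order in 4-OHT, at 9560, 6465, 2428 and 1686 normalized counts per kb, and no library of one of them overlapped with a library of its neighbour in either group. Tapbp came next, with a vehicle mean of 359 normalized counts per kb that became 535 in 4-OHT. H2-Q10 and Erap1 changed places. H2-Q10 stood above Erap1 in vehicle, at 271 against 230 normalized counts per kb, and below it in 4-OHT, at 181 against 208 with overlapping libraries. The transporter subunits were far below the heavy chains, Tap1 at 92.8 and Tap2 at 32.7 normalized counts per kb in vehicle, and Nlrc5 was the lowest member at 0.833. Lengths were those of 1 GENCODE transcript per gene, so these levels depend on that choice.

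H2-K1 encodes the classical heavy chain H-2K, which presents peptides to CD8 T cells. Its normalized counts were 13535, 13416 and 13759 in vehicle and 14760, 16220 and 15453 in 4-OHT. The lowest 4-OHT library, replicate 1, stood above every vehicle library. H2-K1 rose by 0.19 on the log2 scale (SE 0.04, limma adjusted p = 0.00155). Against vehicle, 4-OHT replicate 1 alone gave 0.12 with a limma adjusted p of 0.116, and quantile normalization gave 0.08 with a limma adjusted p of 0.0782, so the call on H2-K1 was lost under both.

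H2-D1 encodes H-2D, the other classical heavy chain of this strain. Normalized counts of H2-D1 were 11554, 11147 and 11089 in vehicle and 12757, 14381 and 13629 in 4-OHT. The groups did not overlap, and 4-OHT replicate 1 was again the lowest of its group. For H2-D1 the log2 fold change was 0.27 (SE 0.05, limma adjusted p = 8.98e-05). It was 0.18 with 4-OHT replicate 1 alone and 0.15 after quantile normalization, where the call held.

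H2-T23 encodes Qa-1, a nonclassical heavy chain whose complex with a leader peptide of other class I molecules is read by NKG2A receptors on natural killer and T cells. Its normalized counts were 1598, 1625 and 1575 in vehicle and 2299, 2637 and 2509 in 4-OHT. All 3 treated libraries were well above the highest vehicle library, and the gap between the groups was wider than the range within either. Its log2 fold change of 0.63 was the largest rise among the members (SE 0.05, limma adjusted p = 1.74e-08), and it was 0.52 with 4-OHT replicate 1 alone.

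H2-Q10 encodes a secreted class I heavy chain best known from liver and serum. Its normalized counts were 574, 514 and 529 in vehicle and 299, 446 and 339 in 4-OHT. Every 4-OHT library was below every vehicle library, with replicate 2 closest to them and replicate 1 farthest away. The log2 fold change of H2-Q10 was -0.60 (SE 0.11, limma adjusted p = 1.95e-04). It was -0.85 with 4-OHT replicate 1 alone. The Paneth and ileum genes summed to 45.7 RPM in that library, above the vehicle range. Of those 880 reads, 828 fell on Ang4. Normalized counts of Ang4 were 478, 610 and 499 in vehicle and 855, 994 and 1106 in 4-OHT, without overlap. Ang4 was called higher (log2 fold change 0.90, SE 0.09, limma adjusted p = 2.14e-07) and stood 0.70 above the vehicle mean in 4-OHT replicate 1. Itln1 had 41.3 normalized counts in 4-OHT replicate 1, against 54.1, 75.2 and 70.2 in vehicle. No other listed gene had more than 4 reads in 4-OHT replicate 1. The part of these genes in the H2-Q10 values was not tested.

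B2m encodes the light chain that all class I heavy chains need to reach the surface. Its normalized counts were 1581, 1578 and 1617 in vehicle and 1893, 2186 and 2184 in 4-OHT. The vehicle libraries were close to each other, and all 4-OHT libraries were above them. On the log2 scale B2m rose by 0.39 (SE 0.06, limma adjusted p = 1.78e-05), and by 0.25 with 4-OHT replicate 1 alone.

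The heavy chains did not move by the same amount. Ratios of reads within 1 library do not use the size factors, so they compare members without the scaling between libraries. H2-T23 had 0.118, 0.121 and 0.114 reads per read of H2-K1 in vehicle and 0.156, 0.163 and 0.162 in 4-OHT. H2-Q10 had 0.0424, 0.0383 and 0.0385 reads per read of H2-K1 in vehicle and 0.0202, 0.0275 and 0.0220 in 4-OHT. H2-D1 moved much less against H2-K1, from 0.854, 0.831 and 0.806 to 0.864, 0.887 and 0.882. The ratio of B2m to the sum of the 4 heavy chains rose from 0.0580, 0.0591 and 0.0600 to 0.0628, 0.0649 and 0.0684. Groups did not overlap in any of these ratios, and each gave p = 0.10 in a two-sided exact permutation test, which is the smallest value that 3 against 3 libraries allow.

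**Figure D2:**
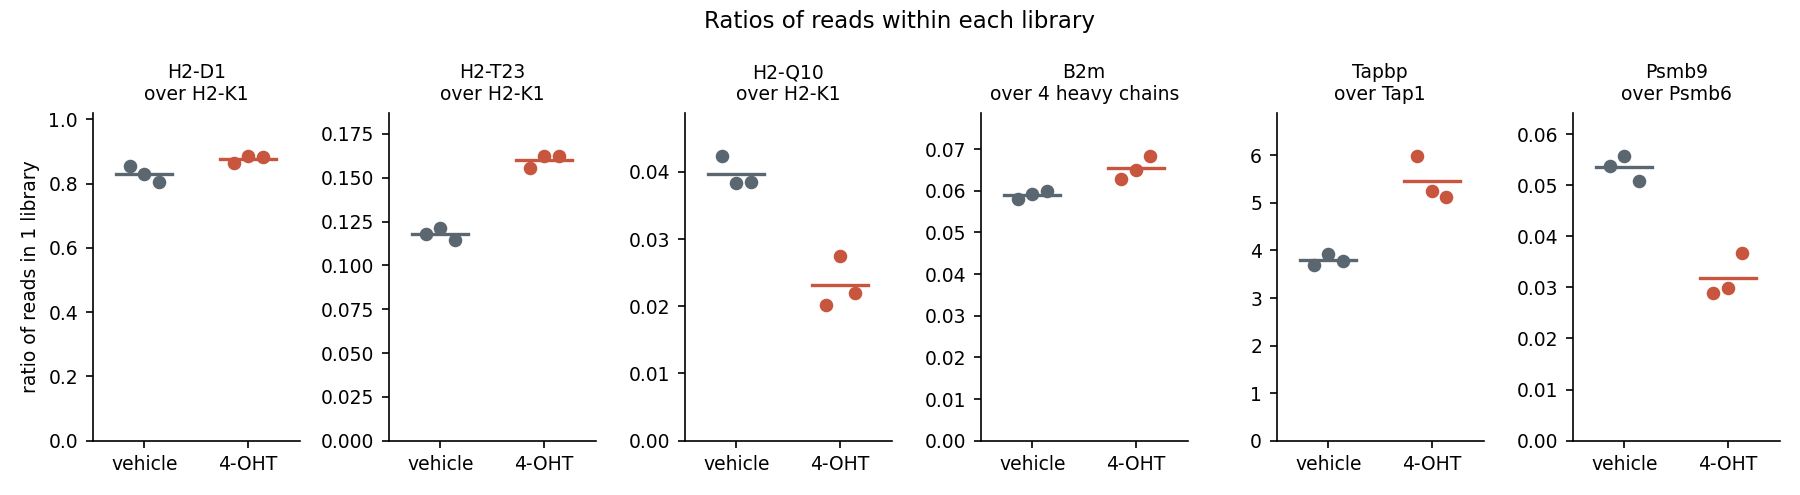
Ratio of the reads of one gene to those of another in the same library, with 1 point per library, group means as lines and linear axes starting at 0. H2-T23 over H2-K1 and Tapbp over Tap1 are higher in 4-OHT, H2-Q10 over H2-K1 and Psmb9 over Psmb6 are lower, and H2-D1 over H2-K1 lies between 0.806 and 0.887 in all 6 libraries.

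Near-identical sequence between class I genes limits how reads are assigned. Of the 50-base stretches in the transcript, 8.79% in H2-K1, 14.3% in H2-D1, 28.8% in H2-T23 and 8.03% in H2-Q10 also occurred in transcripts of another gene. H2-K1 shared most with H2-D1, H2-D1 and H2-Q10 with H2-Q1, and H2-T23 with the pseudogene H2-T-ps. B2m, Erap1 and Nlrc5 shared none. H2-Q1 had between 18.2 and 33.3 normalized counts and H2-T-ps between 17.6 and 27.1 in all libraries. Those counts come from the same assignment of reads, so they cannot show how many shared reads were placed elsewhere. H2-T23 shared stretches with 99 other genes in all. How the counting treated reads that fit several genes is not given in the sources used here, so the split of such reads is uncertain.

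The promoters of the heavy chains and B2m are shown because the known class I enhancer lies there and these 5 genes moved in opposite directions. That enhancer combines NF-kB and interferon regulatory factor sites with an SXY module, in which CREB or ATF proteins bind an X2 box with the core TGACG and NF-Y binds a Y box, a CCAAT sequence read here on the other strand as ATTGG. Sequences are RefSeq promoters of GRCm38.p6, written from 5′ to 3′ on the strand of the gene. The table gave promoters for 8 of the 10 members, all but Tap2 and Nlrc5. H2-K1 had 2 promoters listed, and the first was used. The windows of H2-K1, H2-D1, H2-Q10 and B2m end with a TATA sequence, which in H2-K1 alone lies after the listed start. Capitals mark matches on either strand to the NF-kB decamer, to the interferon regulatory factor core AANNGAAA and to CCAAT, and to TGACG followed after 18 to 22 bases by ATTGG, where ATTGG is itself a match to CCAAT.
H2-K1 (chr17:34000306-34000465, minus strand, 118 bases before to 42 after the listed start): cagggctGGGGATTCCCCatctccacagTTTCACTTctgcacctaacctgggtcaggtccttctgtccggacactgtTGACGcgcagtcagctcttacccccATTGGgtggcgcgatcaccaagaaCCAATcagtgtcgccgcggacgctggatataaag
H2-D1 (chr17:35262915-35263074, plus strand, from 179 to 20 bases before the start): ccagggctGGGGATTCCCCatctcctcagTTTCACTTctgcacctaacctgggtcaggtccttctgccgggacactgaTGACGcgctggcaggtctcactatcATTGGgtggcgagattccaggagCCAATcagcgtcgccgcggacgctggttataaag
H2-T23 (chr17:36032714-36032873, minus strand, from 172 to 13 bases before the start): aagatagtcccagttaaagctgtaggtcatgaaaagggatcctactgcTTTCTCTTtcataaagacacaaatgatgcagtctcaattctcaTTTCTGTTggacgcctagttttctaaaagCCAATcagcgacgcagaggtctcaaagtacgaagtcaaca
H2-Q10 (chr17:35469908-35470067, plus strand, from 181 to 22 bases before the start): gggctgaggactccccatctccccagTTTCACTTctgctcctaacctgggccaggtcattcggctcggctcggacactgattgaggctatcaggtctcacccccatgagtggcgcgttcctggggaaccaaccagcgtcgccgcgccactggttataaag
B2m (chr2:122147503-122147662, plus strand, from 184 to 25 bases before the start): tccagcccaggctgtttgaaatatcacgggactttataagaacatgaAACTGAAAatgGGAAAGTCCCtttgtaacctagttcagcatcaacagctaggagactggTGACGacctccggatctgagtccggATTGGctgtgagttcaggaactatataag

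TGACG and ATTGG stood 20 bases apart in H2-K1, H2-D1 and B2m. The pair was found in 88 of 32851 promoters of 300 bases, or 0.268%. H2-T23, H2-Q10, Tap1, Tapbp and Erap1 had no match to it in their windows. The NF-kB decamer was matched in H2-K1, H2-D1 and B2m and in 4.51% of all promoters. H2-Q10 had 1 match to the interferon regulatory factor core, which 23.9% of promoters hold, and none to CCAAT, which 37.4% hold, or to TGACG, which 20.8% hold. H2-T23 had 2 matches to the interferon core and 1 to CCAAT. The pair was also matched in H2-Q7, whose transcripts fell, and in H2-M3, which was not called. Of the 53 tested genes with the pair, 16 were higher and 13 lower, or 30.2% and 24.5%, beside 22.7% and 21.0% of all rows. A match is a stretch of letters and was not tested as a binding site.

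The transport, loading and trimming genes did not move with the heavy chains as a group. Tapbp, which encodes tapasin, was the only one of these 4 genes that passed the test. It had normalized counts of 1060, 1033 and 1033 in vehicle and 1541, 1668 and 1443 in 4-OHT, with no overlap. Tapbp rose by 0.57 on the log2 scale (SE 0.06, limma adjusted p = 2.14e-07), and by 0.56 with 4-OHT replicate 1 alone. In the annotation, 24.9% of the exon bases of Tapbp overlap an antisense gene, Gm19412, which has no row of its own in the table. Exons of Zbtb22, a protein-coding gene on the same strand, overlap 4.11% of the Tapbp exon bases. Whether the counting used strand is not given in the sources used here. Reads of Tapbp and of Gm19412 within the stretch they share therefore cannot be told apart.

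Tap1 and Tap2 encode the subunits of the transporter that carries peptides into the endoplasmic reticulum. Tap1 had normalized counts of 286, 262 and 274 in vehicle and 257, 317 and 281 in 4-OHT. Tap2 had 106, 99.3 and 132 in vehicle and 136, 113 and 151 in 4-OHT. Both genes overlapped between the groups. The log2 fold change was 0.05 for Tap1 (SE 0.10, limma adjusted p = 0.709) and 0.25 for Tap2 (SE 0.15, limma adjusted p = 0.213). The sign for Tap1 rested on single libraries, as it was -0.03 without 4-OHT replicate 2. Reads of Tapbp per read of Tap1 rose from 3.70, 3.94 and 3.77 to 5.99, 5.26 and 5.13, without overlap (p = 0.10, two-sided exact permutation test, the smallest possible). Exons of Tap1 overlap those of Psmb9, which lies head to head with it, over 3.87% of the Tap1 exon bases. Gm15821 and Gm20496, on the opposite strand to Tap2, overlap 14.1% and 4.36% of the Tap2 exon bases.

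Erap1 encodes the aminopeptidase that trims peptides in the endoplasmic reticulum. It had normalized counts of 1232, 1294 and 1375 in vehicle and 1206, 1086 and 1225 in 4-OHT. The groups did not overlap, and the gap between the highest 4-OHT and the lowest vehicle library was only a few counts. The log2 fold change of -0.15 missed the threshold (SE 0.06, limma adjusted p = 0.0573). Without vehicle replicate 1, 4-OHT replicate 1 or 4-OHT replicate 3 it was between -0.19 and -0.17 and passed, with limma adjusted p of 0.0423, 0.0475 and 0.0481. Without vehicle replicate 2, vehicle replicate 3 or 4-OHT replicate 2 it was -0.15, -0.11 and -0.10 and did not pass. Limma adjusted p was then 0.115, 0.213 and 0.239. Cast, whose exons overlap 11.5% of the Erap1 exon bases on the other strand, rose by 0.54 on the log2 scale.

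Nlrc5 encodes the transactivator that drives heavy chain, B2m and Tap1 promoters in lymphoid and interferon-treated cells. It had 10, 5 and 5 reads in vehicle and 5, 4 and 6 in 4-OHT. The groups overlapped, and with so few reads Nlrc5 did not enter the main test, so these values do not show whether it changed. Intervals on counts of this size would cover counting error only, since no molecular identifiers are stated.

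All 3 4-OHT libraries stood above all vehicle libraries in 5 of the 9 tested members and below them in 2, H2-Q10 and Erap1. Among all rows tested, 26.8% were separated upward and 25.3% downward.

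**Figure D3:**
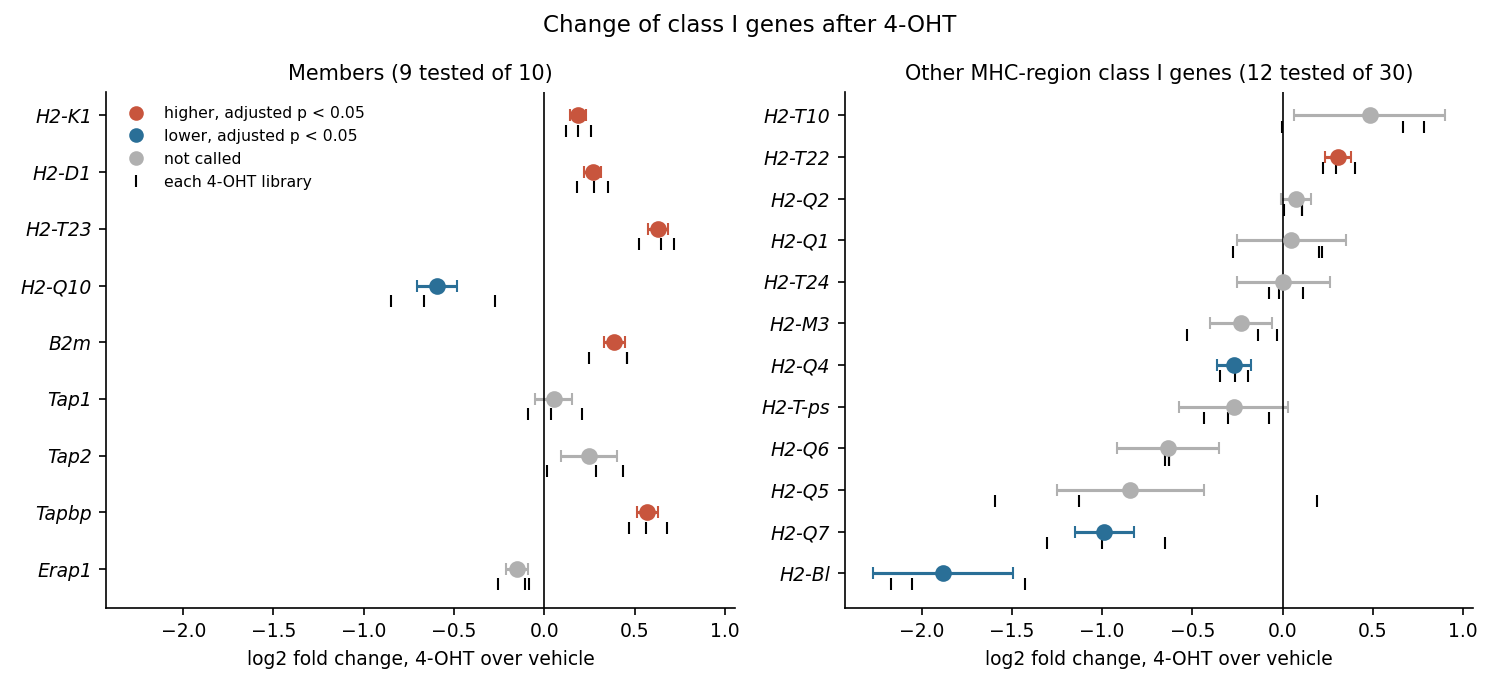
Log2 fold change of 4-OHT over vehicle with its SE (points and bars), and the value of each 4-OHT library against the vehicle mean (ticks), for the 9 tested members on the left and the 12 tested of the other listed class I genes of the MHC region on the right. H2-Q10 lies left of 0 with H2-Q7, H2-Q4 and H2-Bl, and H2-T22 lies right of 0 with H2-T23, H2-D1 and H2-K1.

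Of 30 further listed class I genes of the MHC region, 18 had a row, 12 were tested, 1 was higher and 3 were lower, beside 22.7% and 21.0% of all rows, with a median log2 fold change of -0.25. H2-T22, a nonclassical molecule recognised by some gamma delta T cells, had 565, 634 and 580 normalized counts in vehicle and 727, 784 and 692 in 4-OHT (log2 fold change 0.31, SE 0.07, limma adjusted p = 0.00184). Of the transcript of H2-T22, 44.7% of the 50-base stretches occur in other genes, so the split of its reads is uncertain. H2-Q7, which encodes the lipid-anchored molecule Qa-2, fell from 175, 146 and 176 to 66.1, 105 and 82.0 normalized counts (log2 fold change -0.99, SE 0.17, limma adjusted p = 6.69e-05). H2-Q4 fell by 0.27 on the log2 scale (SE 0.09, limma adjusted p = 0.0260), although its groups overlapped. H2-Bl fell from 26.1, 24.1 and 30.3 to 5.17, 9.33 and 5.69 normalized counts (log2 fold change -1.88, SE 0.39, limma adjusted p = 5.18e-04).

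The H2-Q genes as a group, H2-Q10 included, made up 5.97%, 6.00% and 5.61% of the reads on MHC-region class I genes in vehicle and 3.86%, 4.16% and 4.03% in 4-OHT. H2-T23 took 5.47%, 5.65% and 5.47% of those reads in vehicle and 7.20%, 7.39% and 7.42% in 4-OHT. The total over the 22 class I genes with a row was still higher after 4-OHT, at 31928, 35700 and 33834 normalized counts against 29211, 28783 and 28816. H2-K1 and H2-D1 together set that total, with 46.9% ± 0.748 and 38.9% ± 0.561 of its reads in vehicle (SD, n = 3). H2-Q2 was not called, with a log2 fold change of 0.07, and H2-Q5 and H2-Q6 had -0.84 and -0.64 without passing the test. Of the transcript of H2-Q7, 34.9% of the 50-base stretches occur in other genes, most often H2-Q6, so the split within the H2-Q genes is uncertain.

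Upstream of the transporter lie the genes of peptide supply. Of the 6 immunoproteasome and PA28 genes, 2 were higher and 2 lower, beside 22.7% and 21.0% of all rows. Psmb9, an interferon-induced catalytic subunit that shares its promoter region with Tap1, fell from 166, 163 and 167 to 96.1, 102 and 120 normalized counts (log2 fold change -0.65, SE 0.14, limma adjusted p = 6.27e-04). Psmb10, another inducible catalytic subunit, fell by 0.19 on the log2 scale (SE 0.06, limma adjusted p = 0.0104), and Psmb8, the third, had between 28.4 and 58.1 normalized counts with overlapping groups. Psme1 and Psme2, the subunits of the PA28 activator, rose by 0.19 and 0.30. The standard subunits Psmb5, Psmb6 and Psmb7 had log2 fold changes between 0.10 and 0.13, and limma, edgeR and DESeq2 called none of them, although 3 had an unadjusted limma p under 0.05 and all 3 passed when vehicle replicate 3 was left out. Reads of Psmb9 per read of Psmb6, the subunit it replaces, were 0.0538, 0.0558 and 0.0509 in vehicle and 0.0288, 0.0300 and 0.0367 in 4-OHT. Among 7 tested peptidases of the cytosol and the endosome, Ide fell by 0.30 and the others did not pass.

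Chaperones that act on class I beside Tapbp were mostly lower. Of 9 genes, 1 was higher and 6 were lower, beside 22.7% and 21.0% of all rows, with a median of -0.18. Hspa5, the main Hsp70 of the endoplasmic reticulum, fell by 0.63, Uggt1, which checks glycoprotein folding, fell by 0.39, and Calr and Canx, the lectin chaperones of the loading complex, fell by 0.17 and 0.18 on the log2 scale. Pdia3, the disulphide isomerase bound to tapasin, had 10614, 10516 and 10565 normalized counts in vehicle and 10516, 10550 and 10551 in 4-OHT. Tapbpl, the tapasin-related editor TAPBPR, had a log2 fold change of 0.00 (SE 0.09) beside 0.57 for Tapbp. Bcap31, which helps class I leave the endoplasmic reticulum, was the 1 that rose, by 0.29.

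**Figure D4:**
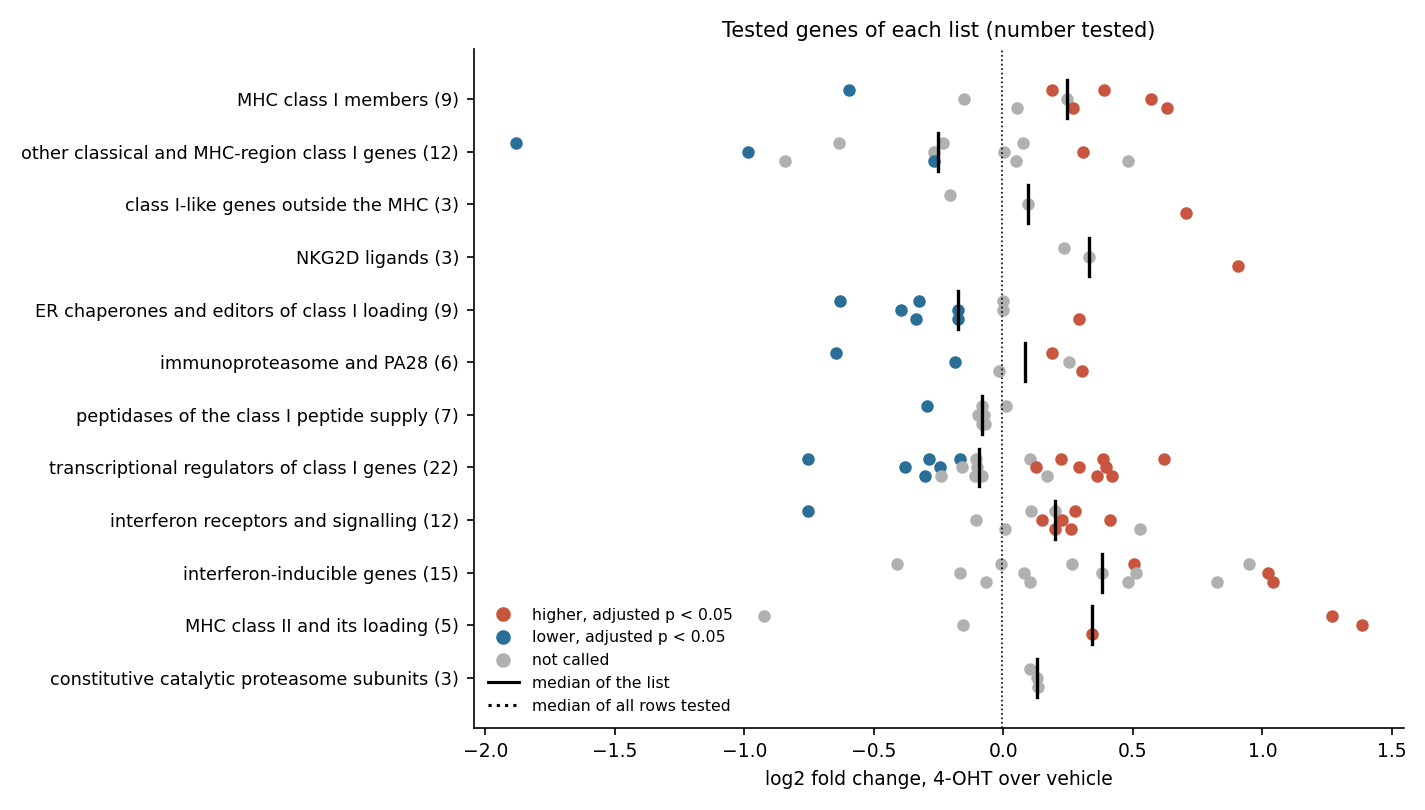
Log2 fold change of 4-OHT over vehicle for each tested gene of the members and of 11 pathway lists, coloured by call, with the median of the list (bar) and of all rows tested (dotted line). The members have their median at 0.25, the other MHC-region class I genes at -0.25 and the chaperones at -0.18.

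Among 22 transcriptional regulators of class I genes, 8 were higher and 6 lower, beside 22.7% and 21.0% of all rows. Irf7 and Irf9, both part of the interferon response, rose by 0.62 and 0.39, and Irf8, Ep300 and Atf1 fell by 0.76, 0.38 and 0.30 on the log2 scale. Irf7 overlapped between groups, with 267, 204 and 155 normalized counts in vehicle and 252, 359 and 340 in 4-OHT. Without 4-OHT replicate 3, 9 of the 22 were called in place of 14. Of 12 genes of interferon receptors and signalling, 6 were higher and 1 lower, beside the same shares of all rows, led by Il10rb at 0.41 and Ifngr1 at 0.28, with the feedback inhibitor Socs3 at -0.75.

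Of 15 tested genes that interferons induce, 3 were called by limma, all higher, beside 22.7% of all rows, and the median log2 fold change was 0.38. Ifit3b had 19, 15 and 8 reads in vehicle and 22, 26 and 25 in 4-OHT, and Gbp3 had 17, 10 and 8 reads against 18, 23 and 22. Once normalized, neither overlapped between the groups. Ifi47, an interferon-induced GTPase, rose by 0.50. These calls depended on the libraries used. By limma 6 genes were called without vehicle replicate 1, none without vehicle replicate 2, vehicle replicate 3 or 4-OHT replicate 3, and 1 without 4-OHT replicate 2. With all libraries edgeR called 3 of the 15, DESeq2 none, and 4 had an unadjusted limma p under 0.05. H2-D1, H2-T23, H2-Q10, B2m and Tapbp kept their calls in every alternative that was run. Vehicle means of these members were 539 to 11263 normalized counts, against 7.91 to 419 for the 15 genes. The calls of the members and of the 15 genes were thus compared at unlike counts.

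Outside the MHC, Procr, a class I-like protein C receptor, rose by 0.70 (SE 0.13, limma adjusted p = 2.29e-04), and Fcgrt, the neonatal Fc receptor that also pairs with B2m, had a log2 fold change of 0.10 and was not called. H60c, a ligand of the activating receptor NKG2D, rose by 0.91 (SE 0.24, limma adjusted p = 0.00397). It was the 1 of 3 tested NKG2D ligands that passed, beside 22.7% of all rows called higher. Raet1e and Ulbp1 had log2 fold changes of 0.23 and 0.33 and were not called. All 3 were separated upward, beside 26.8% of all rows.

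Class II genes and leukocyte markers were counted because other cells could carry class I transcripts too. Cd74, the class II invariant chain, had 29, 28 and 19 reads in vehicle and 33, 78 and 59 in 4-OHT, and H2-Eb1 had 3, 13 and 9 reads against 8, 35 and 20. Of 5 tested class II genes, 3 were higher, beside 22.7% of all rows. Those 3, Cd74, Ctss and H2-Eb1, stood 0.54, 0.29 and 0.26 above the vehicle mean in 4-OHT replicate 1 on the log2 scale. In that library H2-Ab1 and H2-DMa were at -3.17 and -0.13. H2-Ab1 went the other way without passing the test, with 33, 47 and 15 reads in vehicle and 2, 24 and 33 in 4-OHT (log2 fold change -0.92, SE 0.61), and H2-DMa, with a log2 fold change of -0.15 (SE 0.23), was separated downward and not called. The 14 leukocyte markers, 13 of which had a row, summed to 28, 28 and 36 reads in vehicle and to 33, 50 and 79 reads in 4-OHT. Csf1r, a receptor of macrophages, was called higher, with 14, 12 and 4 reads in vehicle and 15, 17 and 26 in 4-OHT (log2 fold change 1.20, SE 0.43, limma adjusted p = 0.0295). Lyz2, the lysozyme of myeloid cells, had no read in vehicle and 1, 6 and 25 in 4-OHT, and Adgre1, a macrophage marker, had no read in vehicle and 0, 1 and 5 in 4-OHT. Ptprc, Itgam and Laptm5 overlapped between the groups, and Cd3e and Tyrobp had 1 read each over all libraries. In 4-OHT replicate 1 the leukocyte markers summed to 1.71 RPM, against 1.04 to 2.28 RPM in vehicle and 2.55 and 4.49 RPM in the other two 4-OHT libraries. The part of these markers in the class I values was not tested.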

How the data were processed

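RNA-seq was made from 6 colon organoid libraries, 3 per group. The authors deposited one table of normalized counts, a signal per gene divided by a size factor per library. The submitters' processing notes name STAR, DESeq2 and GRCm39 (mm39). Every value came out as a whole read within 0.1 reads once the factor was undone. 4 symbols stood on several rows.

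The main test was limma 3.58.1 (R 4.3.3) with an intensity trend on log2(normalized count + 1), for rows with a mean of at least 10, with Benjamini-Hochberg adjustment over 13210 rows and a threshold of 0.05. A pseudocount of 1 understates fold changes of low genes. The code was tested on simulated data. Alternatives were edgeR 4.0.16 and DESeq2 1.42.0 on recovered reads, other pseudocounts, filters and scalings, each library left out, and 4-OHT replicate 1 alone.

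Members and lists were chosen with earlier results of these data known. All 10 members are named. For lists with 9 or fewer tested genes any gene may be named, and for longer lists at most the 3 largest called rises and falls. Some listed genes are not reported here by name. H2-Q2, H2-Q5, H2-Q6, H2-M3, H2-Q1, H2-T-ps and Cast were named in addition after their values were seen. Transcript lengths, shared 50-base stretches and overlaps came from GENCODE vM21.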

Additional observations from a re-analysis of the deposited data

How the results depend on the processing

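Of 144 values of single members under 16 alternatives, 136 kept their direction and their side of the threshold. H2-D1, H2-T23, H2-Q10, B2m and Tapbp kept both in all 16. The call on H2-K1 was lost under quantile normalization (0.08) and with 4-OHT replicate 1 alone (0.12), a fit that assumes that this library varies like the vehicle libraries. Tap1 turned negative, with a log2 fold change of -0.0906 with 4-OHT replicate 1 alone and of -0.0267 without 4-OHT replicate 2. Erap1 passed under quantile normalization (-0.17), which gave 2 lower members. Leaving out 1 library gave 1 to 2 lower members and a median of the members between 0.18 and 0.26. That median was 0.15 under quantile normalization and 0.18 with 4-OHT replicate 1 alone, where 1991 genes were higher. The cause of these shifts was not tested. Among lists, quantile normalization called 2 NKG2D ligands and 3 peptidases. With 4-OHT replicate 1 alone, 2 immunoproteasome genes, 0 peptidases, 1 interferon-inducible gene and 1 class II gene were called. A minimum mean of 50 left 1 interferon-inducible and 1 class II gene called. The interferon-inducible count was 0 with no filter and by DESeq2, and 0 to 6 with 1 library left out, the regulators' count was 9 to 14, and that of the standard proteasome subunits 0 to 3. With a replicate block, 5637 genes were called against 5765, and the block changed no call on a member. Libraries with the same number had correlations of -0.01, 0.03 and -0.02 in their deviations, so the numbers were not taken as pairs. Depth limits Nlrc5, which only obtained a fit with no filter.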
